A study of Saccharomyces cerevisiae with 12 samples.

Results

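The 10 genes described here encode the enzymes of the glyoxylate cycle and of gluconeogenesis in budding yeast, with the carriers and side enzymes that serve them: MLS1 (YNL117W), ICL1 (YER065C), CIT2 (YCR005C), MDH2 (YOL126C), IDP2 (YLR174W), SFC1 (YJR095W), ACS1 (YAL054C), JEN1 (YKL217W), PCK1 (YKR097W) and FBP1 (YLR377C). They were chosen by name for their place in the pathway, with earlier results of these data known. They make up 10 of the 7126 genes in the deposited count table. Ribodepleted total RNA of BY background strains was sequenced in 12 libraries. The groups were cells with a deletion of the MMS2 intron (mms2Δi), cells with a deletion of the YSF3 intron (ysf3Δi) and wild type, each with 2 strains, and every strain was sampled after 48 h of culture and in log phase. All were grown in synthetic minimal medium with 2% glucose and histidine, leucine, uracil and lysine. The series compared how cells with and without these introns change their expression between growth and starvation.

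The glyoxylate cycle bypasses the steps of the citric acid cycle that release carbon dioxide, so that acetate and ethanol can be turned into cell material. Gluconeogenesis then runs from oxaloacetate to hexose phosphate, with Pck1 and Fbp1 at the steps that glycolysis cannot reverse. In cells on glucose most of these genes are repressed, in part by the zinc finger protein Mig1, and on non-fermentable carbon the kinase Snf1 allows the activators Cat8 and Sip4 to act through a promoter motif called the carbon source responsive element.

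Of the 10 genes 4 carried a match to the carbon source responsive element in the 600 bases before the start codon, read on both strands of the RefSeq genome of build R64 (sacCer3). Over all genes with such a window 33 of 6018 had a match, or 0.548%. The 7 matches are printed 5′ to 3′ on the gene's strand with 10 bases on each side, because the genes that carry them include MLS1, with the largest change between phases, and MDH2, with the smallest. Capitals mark the match, which is the reverse complement of the motif where the line says reverse.
MLS1, chrXIV:405817-405848, plus strand, reverse: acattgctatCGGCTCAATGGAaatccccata
MLS1, chrXIV:405847-405878, plus strand, forward: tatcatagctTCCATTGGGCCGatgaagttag
ICL1, chrV:287292-287323, minus strand, forward: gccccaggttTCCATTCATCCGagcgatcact
PCK1, chrXI:630660-630691, plus strand, forward: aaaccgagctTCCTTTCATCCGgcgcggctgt
MDH2, chrXV:83332-83363, minus strand, reverse: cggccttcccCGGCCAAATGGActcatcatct
MDH2, chrXV:83300-83331, minus strand, forward: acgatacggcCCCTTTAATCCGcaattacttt
MDH2, chrXV:83277-83308, minus strand, forward: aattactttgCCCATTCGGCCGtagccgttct

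The Mig1 motif, searched as GCGGGG and also as GTGGGG and also as CCGGGG and also as CTGGGG on both strands, was matched before 7 of the 10 genes and before 27.8% of all genes. FBP1 had 2 matches, while SFC1, ACS1 and JEN1 had none. In MDH2 the Mig1 match shared 3 bases with the first of its carbon source responsive elements. The R box, searched as GTCAC on both strands, the motif bound by the retrograde factors Rtg1 and Rtg3, was matched before 6 of the 10 genes and before 49.1% of all genes, with 3 matches each in CIT2 and IDP2. JEN1 had no match to any of these motifs. These matches are descriptions of letters in the window and no measure of binding.

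**Figure D1:**
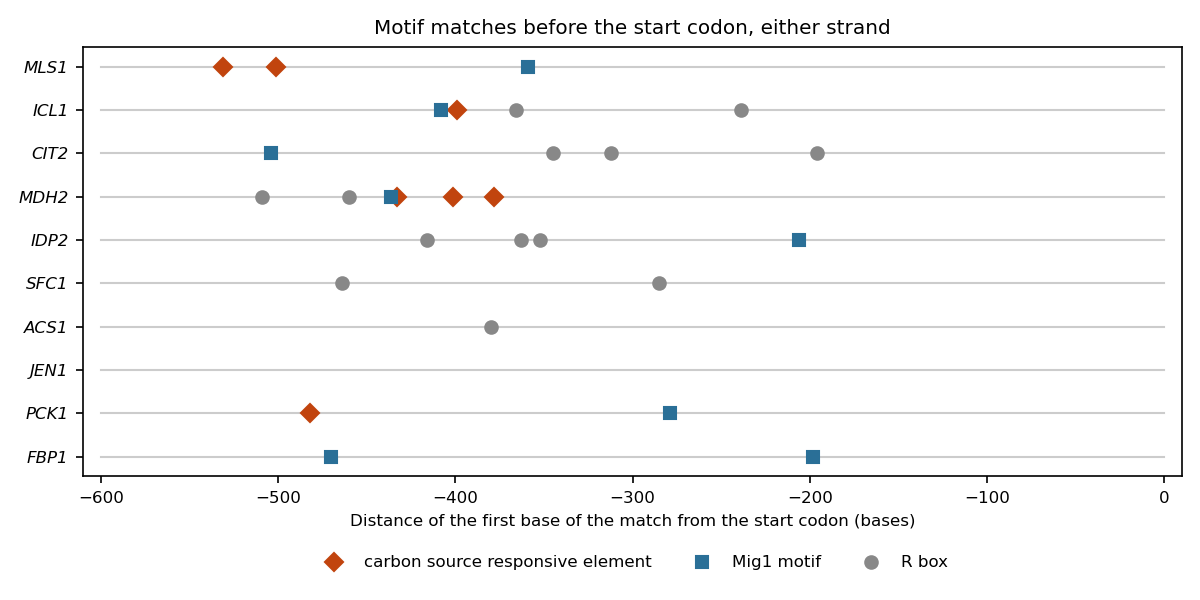
Positions of motif matches before the start codon of the 10 genes, with the distance in bases on the x axis and 1 gene per row (diamonds: carbon source responsive element, squares: Mig1 motif, circles: R box). The diamonds lie in MLS1, ICL1, MDH2 and PCK1 only, and JEN1 has no symbol.

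Library totals ran from 4871513 to 16581925 counts, and all 10 genes were among the 6068 tested. None of the 10 has an annotated intron or overlaps another annotated gene. Counts per gene of MMS2 and YSF3 cannot show whether an intron is missing, and neither gene passed the test in the cells deleted for its intron (adjusted p of 0.669 at 48 h and 0.0891 in log phase for MMS2, and 0.897 at 48 h and 0.0856 in log phase for YSF3, edgeR). The strain labelled wild type strain 1 stood apart by its mating type markers. Its summed α-cell markers (MF(ALPHA)1, MF(ALPHA)2, STE3, SAG1) came to 2488 CPM in log phase (CPM is the read count of a gene relative to the scaled total of its library), against 22.8 to 38.9 CPM in the other 5 strains, and it had the lowest level of the a-cell markers, with STE2, STE6, BAR1 and AGA2 high in the other strains. MFA1 was at 0 counts in every library and MFA2 at 0 to 2. At 48 h the α-cell sum was 116 CPM in wild type strain 1 and 29.5 to 44.2 CPM in the others. The summed meiosis markers (IME1, NDT80, SPO11, SPS4) lay between 32.1 and 79.8 CPM in all libraries. The headline differences from wild type are also given without both libraries of wild type strain 1.

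Between log phase and 48 h, 9 of the 10 genes rose in every genotype, by a median log2 fold change over the 10 genes of 6.54 in mms2Δi, 6.0 in ysf3Δi and 5.73 in wild type. MDH2 was the exception, and its level fell slightly or did not pass the test. Together the 10 genes took 0.835 ± 0.0560% of all counts at 48 h in mms2Δi, 0.653 ± 0.0469% in ysf3Δi and 0.491 ± 0.0859% in wild type (mean ± SD, n = 2). In log phase the shares were 0.0222 ± 0.000679% in mms2Δi, 0.0226 ± 0.000276% in ysf3Δi and 0.0175 ± 0.00301% in wild type. Calls are at an adjusted p under 0.05 in edgeR's quasi-likelihood test over all 6068 genes. Of all genes 33.4% were called higher at 48 h in mms2Δi, 33.9% in ysf3Δi and 32.8% in wild type, and the median log2 fold change of all genes was 0.06 in mms2Δi, 0.03 in ysf3Δi and -0.01 in wild type. In bulk RNA a change in all cells and a larger change in some of them cannot be told apart, and all levels here are relative to the rest of the library.

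**Figure D2:**
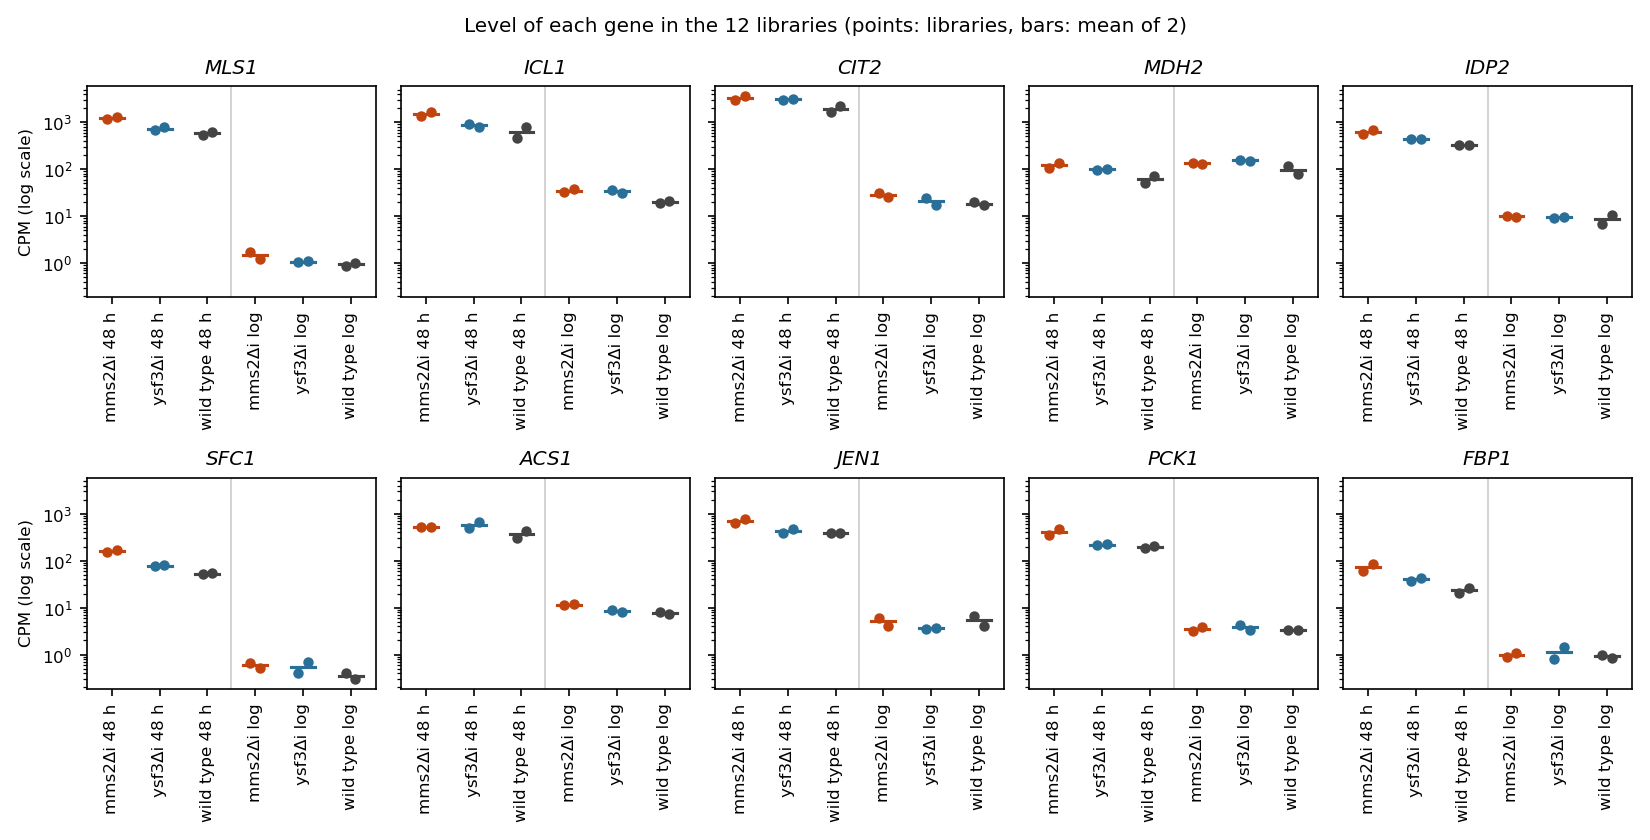
Level of each gene in CPM (log axis) in the 12 libraries, with 48 h left and log phase right and mms2Δi, ysf3Δi and wild type in each phase (points: libraries, bars: mean of 2). In 9 panels every 48 h point lies above every log phase point, and in MDH2 the phases lie close together.

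Isocitrate lyase and malate synthase carry out the reactions that are particular to the glyoxylate cycle. MLS1, the malate synthase gene, had 1180 and 1325 CPM at 48 h in mms2Δi, 692 and 778 CPM in ysf3Δi and 528 and 632 CPM in wild type. In log phase it had 1.72 and 1.20 CPM in mms2Δi, 1.03 and 1.08 CPM in ysf3Δi and 0.860 and 1.02 CPM in wild type, which is 13 to 21 counts per library. MLS1 was thus among the upper genes of the 10 at 48 h and next to the lowest in log phase per kilobase, and its log2 fold change of 9.74 in mms2Δi, 9.42 in ysf3Δi and 9.25 in wild type was the largest of the 10 in each genotype. Among all 6068 genes it ranked 7 in wild type.

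ICL1, the isocitrate lyase gene, had 1333 and 1662 CPM at 48 h in mms2Δi, 941 and 811 CPM in ysf3Δi and 458 and 801 CPM in wild type. In log phase it had 32.1 and 37.2 CPM in mms2Δi, 36.6 and 31.0 CPM in ysf3Δi and 19.1 and 20.9 CPM in wild type. ICL1 was therefore already counted at 19.1 CPM or more in growing cells, and its log2 fold change of 5.43 ± 0.29 in mms2Δi, 4.70 ± 0.28 in ysf3Δi and 4.98 ± 0.28 in wild type was among the smaller of the 9 rises (the error here and below is the approximate error of the edgeR fit).

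CIT2 encodes the peroxisomal citrate synthase, which condenses acetyl-CoA with oxaloacetate and is the classic target of retrograde signalling from mitochondria to the nucleus. It had 3039 and 3708 CPM at 48 h in mms2Δi, 2953 and 3188 CPM in ysf3Δi and 1650 and 2271 CPM in wild type. Its log phase levels were 31.2 and 25.3 CPM in mms2Δi, 24.4 and 17.3 CPM in ysf3Δi and 20.1 and 17.0 CPM in wild type. CIT2 rose on the log2 scale by 6.90 ± 0.29 in mms2Δi, 7.20 ± 0.29 in ysf3Δi and 6.72 ± 0.29 in wild type.

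MDH2 encodes the cytosolic malate dehydrogenase, which supplies oxaloacetate for gluconeogenesis. At 48 h it had 106 and 135 CPM in mms2Δi, 96.1 and 103 CPM in ysf3Δi and 50.9 and 71.7 CPM in wild type. In log phase it had 136 and 132 CPM in mms2Δi, 160 and 151 CPM in ysf3Δi and 116 and 79.5 CPM in wild type. The phases overlapped in mms2Δi, where the log2 fold change was -0.14 ± 0.21 (adjusted p = 0.562), and did not overlap in ysf3Δi (-0.64 ± 0.21, adjusted p = 0.0181) or wild type (-0.66 ± 0.21, adjusted p = 0.0157). Of all genes 32.9% were called lower at 48 h in ysf3Δi and 34.3% in wild type, so a call of this kind was frequent. The change of MDH2 per strain was -0.35 and 0.04 in mms2Δi, -0.73 and -0.54 in ysf3Δi and -1.19 and -0.15 in wild type, strain 1 first. Without both libraries of wild type strain 1 the wild type value was -0.17 with an adjusted p of 0.503, and it was -0.37 (0.147) without that strain's log phase library and -0.48 (0.104) without its 48 h library. In ysf3Δi the value lay between -0.59 and -0.69 and missed the threshold without strain 1 in log phase (0.0604), without strain 1 at 48 h (0.0921) or without strain 2 at 48 h (0.0572).

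ACS1 encodes the acetyl-CoA synthetase that is made when glucose is absent, and IDP2 the cytosolic isocitrate dehydrogenase that reduces NADP. ACS1 had 513 and 526 CPM at 48 h in mms2Δi, 495 and 682 CPM in ysf3Δi and 311 and 426 CPM in wild type, against 11.2 and 11.8 CPM in log phase in mms2Δi, 8.75 and 7.92 CPM in ysf3Δi and 8.20 and 7.24 CPM in wild type. It rose by 5.49 ± 0.22 in mms2Δi, 6.14 ± 0.23 in ysf3Δi and 5.58 ± 0.22 in wild type. For IDP2 the 48 h levels were 570 and 701 CPM in mms2Δi, 438 and 442 CPM in ysf3Δi and 325 and 329 CPM in wild type, against 10.2 and 9.48 CPM in log phase in mms2Δi, 9.31 and 9.61 CPM in ysf3Δi and 6.68 and 10.7 CPM in wild type. IDP2 rose by 6.02 ± 0.23 in mms2Δi, 5.54 ± 0.22 in ysf3Δi and 5.23 ± 0.22 in wild type, and its wild type libraries, which lay apart in log phase, were nearly equal at 48 h.

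PCK1 encodes phosphoenolpyruvate carboxykinase, which commits oxaloacetate to gluconeogenesis. It had 346 and 478 CPM at 48 h in mms2Δi, 217 and 225 CPM in ysf3Δi and 187 and 207 CPM in wild type, against 3.20 and 3.91 CPM in log phase in mms2Δi, 4.30 and 3.38 CPM in ysf3Δi and 3.37 and 3.29 CPM in wild type. The log2 fold change of PCK1 was 6.85 ± 0.22 in mms2Δi, 5.85 ± 0.21 in ysf3Δi and 5.88 ± 0.21 in wild type. FBP1, the gene of fructose bisphosphatase at the last regulated step, was the lowest of the 10 per kilobase at 48 h. Its 48 h levels were 60.4 and 86.7 CPM in mms2Δi, 37.8 and 42.6 CPM in ysf3Δi and 21.0 and 26.6 CPM in wild type, against 0.902 and 1.05 CPM in log phase in mms2Δi, 0.796 and 1.42 CPM in ysf3Δi and 0.992 and 0.838 CPM in wild type. FBP1 rose by 6.22 in mms2Δi, 5.15 in ysf3Δi and 4.70 in wild type, and its log phase libraries held 10 to 21 counts each.

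SFC1 encodes the mitochondrial carrier that exchanges succinate, the product of isocitrate lyase, for fumarate. It had 156 and 167 CPM at 48 h in mms2Δi, 76.6 and 79.6 CPM in ysf3Δi and 51.6 and 53.8 CPM in wild type. In log phase SFC1 was near the limit of detection, with 0.656 and 0.526 CPM in mms2Δi, 0.398 and 0.677 CPM in ysf3Δi and 0.397 and 0.299 CPM in wild type, or 5 to 10 counts per library. It rose on the log2 scale by 8.07 in mms2Δi, 7.13 in ysf3Δi and 7.21 in wild type. The errors of the fit do not carry the full counting error of so few counts, so none is given for MLS1, FBP1 and SFC1. The changes within single strains were 9.25 to 10.09 for MLS1, 4.39 to 6.35 for FBP1 and 6.86 to 8.28 for SFC1.

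JEN1 encodes the plasma membrane permease for lactate and pyruvate. It had 630 and 772 CPM at 48 h in mms2Δi, 384 and 472 CPM in ysf3Δi and 383 and 392 CPM in wild type, against 6.07 and 4.06 CPM in log phase in mms2Δi, 3.58 and 3.72 CPM in ysf3Δi and 6.75 and 4.13 CPM in wild type. JEN1 rose by 7.12 ± 0.28 in mms2Δi, 6.87 ± 0.28 in ysf3Δi and 6.16 ± 0.27 in wild type. Its log phase mean was lower in both deletions than in wild type, (log2 fold changes of -0.10 in mms2Δi and -0.57 in ysf3Δi), which held for no other of the 10 genes, and neither difference passed the test.

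**Figure D3:**
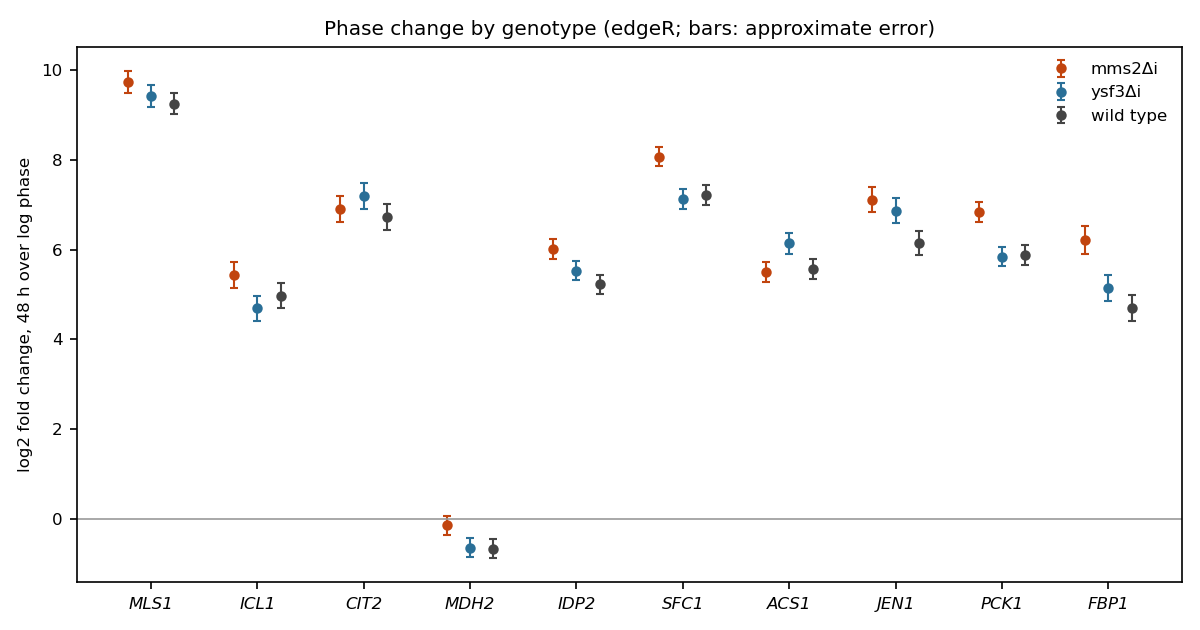
Log2 fold change of each gene at 48 h over log phase by genotype (points: edgeR estimate, bars: approximate error, which is too small for MLS1, SFC1 and FBP1 with few log phase counts). Points for 9 genes lie between 4.70 and 9.74, and MDH2 lies between -0.66 and -0.14.

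The adjusted p of the 9 rises was at most 2.48e-07 in any genotype (edgeR). In log phase MDH2 was the most abundant of the 10 per kilobase of gene, at 118 CPM per kb in mms2Δi, 137 in ysf3Δi and 86.2 in wild type. The next genes in log phase, ICL1 and CIT2, had 20.7 and 20.4 CPM per kb in mms2Δi, 20.2 and 15.1 in ysf3Δi, and 11.9 and 13.4 in wild type, and their libraries overlapped in mms2Δi and wild type. At 48 h the first place was held by CIT2, with 2440 CPM per kb in mms2Δi, 2220 in ysf3Δi and 1418 in wild type. ICL1, MLS1 and IDP2 followed in that order in each genotype, with 895, 752 and 513 CPM per kb in mms2Δi, 523, 442 and 355 in ysf3Δi, and 376, 349 and 264 in wild type. ICL1 and MLS1 overlapped between libraries in wild type alone. Lower in the 48 h order, PCK1 and ACS1 overlapped in mms2Δi, ACS1 and JEN1 in ysf3Δi, and SFC1 and MDH2 in wild type.

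Several of these enzymes have an isozyme in another compartment or pathway, and 9 such pairs were compared per kilobase within each strain. The pairs share 43.3% to 81.0% of aligned residues and 60.4% to 74.1% of coding bases. In 7 pairs the gene of the cycle gained on its isozyme at 48 h in 6 of 6 strains. The exact sign-flip permutation test over the 6 strains gave p = 0.0312 for each, two-sided, the smallest value it can reach, and 0.0351 after adjustment over 9 pairs.

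The widest turn was MLS1 against DAL7, the malate synthase of allantoin breakdown. The log2 ratio of MLS1 to DAL7 was 3.98 at 48 h in mms2Δi, 3.15 in ysf3Δi and 2.41 in wild type, against -8.34 in log phase in mms2Δi, -8.61 in ysf3Δi and -8.82 in wild type, a mean change of 11.77 ± 0.54 (SD, n = 6). DAL7 had 45.2 to 66.6 CPM per kb in the 48 h libraries and 233 to 305 CPM per kb in log phase, so the malate synthase RNA counted in growing cells was nearly all assigned to DAL7. ACS1 overtook ACS2, the synthetase also made on glucose, by a change of 6.25 ± 0.60, and IDP2 overtook the mitochondrial IDP1 by 5.91 ± 0.55. CIT2 overtook the mitochondrial CIT1 by 2.96 ± 0.42, although CIT1 itself rose by 3.56 on the log2 scale in wild type.

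IDP2 gained 3.65 ± 0.65 on the peroxisomal IDP3, CIT2 gained 1.82 ± 0.46 on the mitochondrial CIT3, and ICL1 gained 0.91 ± 0.28 on ICL2, which encodes a mitochondrial methylisocitrate lyase. In these pairs the gene of the cycle was ahead on average in log phase too. MDH2 moved the other way: its log2 ratio to the mitochondrial MDH1 was -1.69 at 48 h in mms2Δi, -1.60 in ysf3Δi and -1.64 in wild type, against 0.98 in log phase in mms2Δi, 1.10 in ysf3Δi and 0.95 in wild type. MDH1 itself rose by 1.92 in wild type. The mean change was -2.65 ± 0.29, with MDH2 losing in 6 of 6 strains (exact p = 0.0312, adjusted 0.0351). Against the peroxisomal MDH3 the change was -0.57 ± 0.47, MDH2 gained in 1 of 6 strains, and the exact p of 0.0625 missed the threshold.

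**Figure D4:**
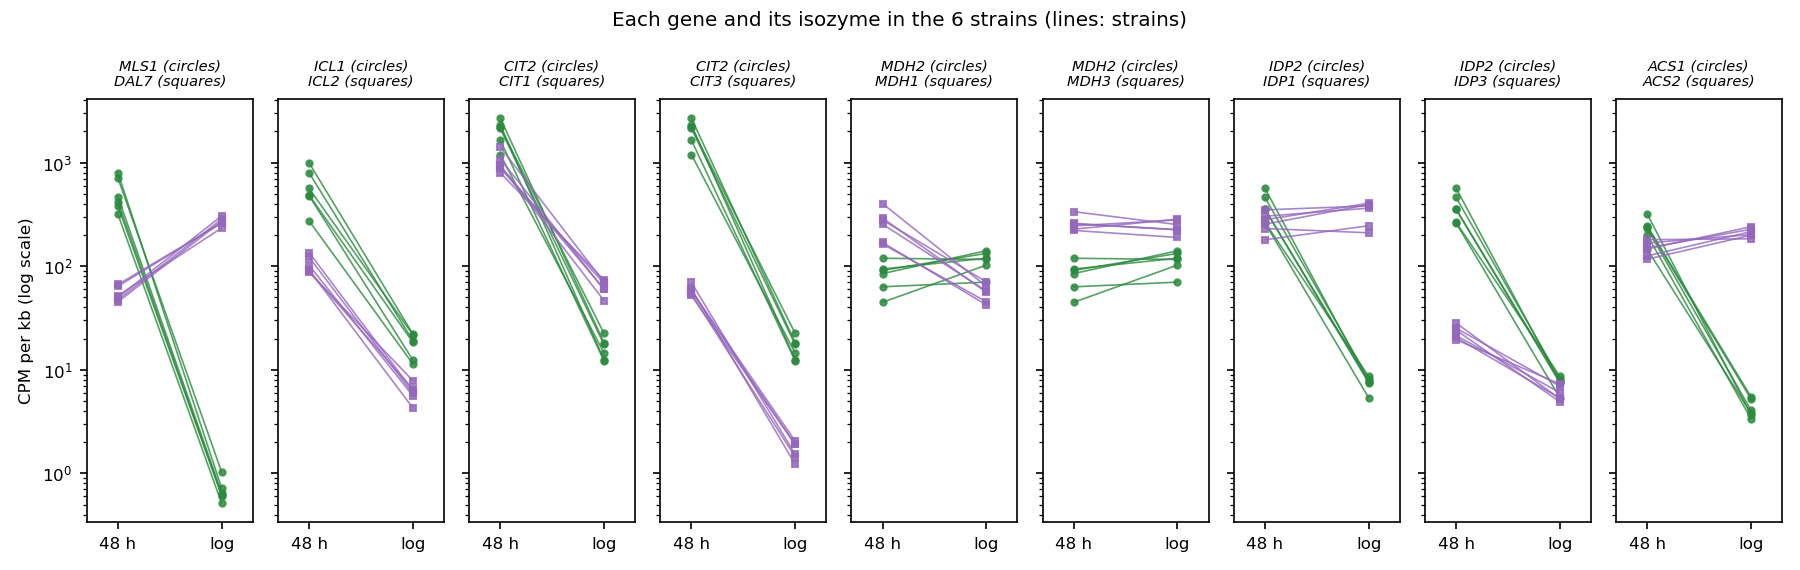
Level in CPM per kb (log axis) of each gene of the cycle (circles) and its isozyme (squares) at 48 h and in log phase, with 1 line per strain. Lines cross for MLS1 and DAL7, CIT2 and CIT1, IDP2 and IDP1, and ACS1 and ACS2, and the MDH2 and MDH1 lines cross in the other direction.

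At 48 h the mms2Δi strains had more RNA of these genes than wild type. The 2 mms2Δi strains lay above the 2 wild type strains in all 10 genes, as they did in 36.1% of all genes. Of the 10 genes 9 passed the test, where 8.54% of all genes were called higher. The median log2 fold change was 1.02 over the 10 genes and 0.04 over all genes. FBP1 and SFC1 differed most, by 1.62 ± 0.23 (adjusted p = 0.0139) and 1.61 ± 0.14 (adjusted p = 0.00176), which is about 3.08-fold and 3.06-fold. ICL1 (1.25 ± 0.24), MLS1 (1.11 ± 0.15) and PCK1 (1.07 ± 0.17) were higher by 2.09- to 2.38-fold, and MDH2 (0.97 ± 0.21), IDP2 (0.96 ± 0.18), JEN1 (0.86 ± 0.21) and CIT2 (0.78 ± 0.22) by 1.72- to 1.96-fold. The adjusted p of these 7 genes ran up to 0.0495 for CIT2. ACS1 was at 0.49 ± 0.18 and did not pass (adjusted p = 0.0976).

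The direction of these differences did not rest on single libraries, while the calls did. Without both libraries of wild type strain 1 no gene of the 6068 was called, and the 10 genes kept log2 fold changes above 0, at 1.56 for SFC1, 1.45 for FBP1, 0.97 for PCK1, 0.96 for MLS1, 0.92 for IDP2, 0.88 for ICL1, 0.81 for JEN1, 0.73 for MDH2, 0.54 for CIT2 and 0.26 for ACS1, with adjusted p of 0.114 to 0.414 for the 9 other than ACS1. The count was likewise 0 of 10 without the 48 h library of wild type strain 1 alone, and 1 of 10 (SFC1) without that of mms2Δi strain 2. The median log2 fold change over the 10 genes, 1.02 with all libraries, moved both ways. It was 0.90 without the 48 h library of wild type strain 1 and 0.80 without that of mms2Δi strain 2. It was 1.16 without the 48 h library of mms2Δi strain 1 and 1.11 without that of wild type strain 2. The summed α-cell markers at 48 h, given above, separate wild type strain 1 from all other strains. Its 48 h library was also the smallest, at 4871513 counts against 14999029 in wild type strain 2. At 48 h strain 1 also had fewer counts than strain 2 in mms2Δi (5051438 and 15409749) and ysf3Δi (9075505 and 16581925). The part of the markers or of the library size in the difference was not tested.

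**Figure D5:**
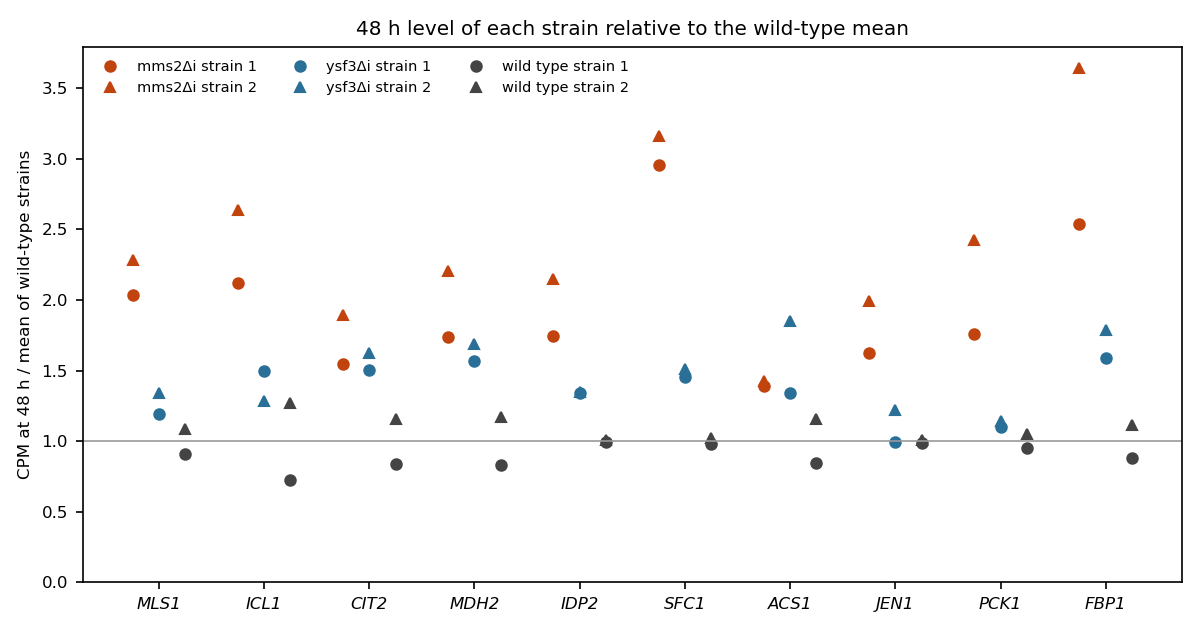
Level of each gene in each strain at 48 h divided by the mean of the wild type strains (y axis from 0, circles: strain 1, triangles: strain 2). The mms2Δi symbols lie above both wild type symbols in every gene, with FBP1 and SFC1 highest, and the ysf3Δi symbols lie mostly between them.

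In ysf3Δi at 48 h all 10 genes had a positive log2 fold change against wild type, from 0.14 ± 0.21 for JEN1 to 0.75 ± 0.23 for FBP1, with a median of 0.52 against 0.01 over all genes. None of the 10 passed edgeR's test, where 2.49% of all genes were called higher. At an unadjusted p under 0.05 there were 7 of 10, and 1240 of all 6068 genes (20.4%). The Wald test of DESeq2 called 4 of the 10 higher (SFC1, MDH2, CIT2 and ACS1) and 370 of all genes. The smallest adjusted p in edgeR was 0.0561, for SFC1 at 0.57 ± 0.14. JEN1 overlapped between the groups and the other 9 genes did not, with ysf3Δi above wild type, as in 32.5% of all genes. Without both libraries of wild type strain 1 no gene was called by edgeR, and the median over the 10 genes was 0.43. ICL1 was then at 0.13 (adjusted p = 0.981), against 0.47 with all libraries, and JEN1 at 0.13. JEN1 was at -0.01 (adjusted p = 0.985) without the 48 h library of ysf3Δi strain 2.

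The deletions were also set against each other at 48 h. SFC1 differed by 1.05 ± 0.14 in mms2Δi over ysf3Δi, with an unadjusted p of 1.41e-05 and an adjusted p of 0.0854. PCK1 (0.90 ± 0.17), FBP1 (0.88 ± 0.22), ICL1 (0.77 ± 0.24) and MLS1 (0.77 ± 0.15) followed, and CIT2 (0.14 ± 0.22) and ACS1 (-0.18 ± 0.18) overlapped between the groups. edgeR called no gene of the 6068 in this comparison (0%), with 374 genes at an unadjusted p under 0.05, and DESeq2 called SFC1, PCK1 and MLS1 of the 10. In the authors' deposited table of ysf3Δi over mms2Δi SFC1 was 1 of 7 genes listed, with a log2 fold change of -0.85, the same direction with the groups turned round.

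Over all genes more were called against wild type in log phase than at 48 h, in both deletions. For the 10 genes the median log2 fold change in log phase was smaller, at 0.51 in mms2Δi and 0.18 in ysf3Δi. In mms2Δi against wild type ICL1 alone was called, at 0.79 ± 0.25 (adjusted p = 0.0397), where 13.9% of all genes were called higher. In ysf3Δi against wild type ICL1 (0.76 ± 0.25, adjusted p = 0.0454) and MDH2 (0.67 ± 0.21, adjusted p = 0.0358) were called, where 13.7% of all genes were called higher. The ICL1 call ended without any 1 of the 4 libraries compared in mms2Δi, at adjusted p of 0.0661 to 0.209, and without both libraries of wild type strain 1 (0.0558 in mms2Δi and 0.0614 in ysf3Δi). In ysf3Δi the ICL1 call ended without either wild type library or without ysf3Δi strain 1 (0.127 to 0.158), and the MDH2 call without wild type strain 2 (0.42, 0.251) or without either ysf3Δi strain (0.0949 and 0.0531). MDH2 in mms2Δi was at 0.45 ± 0.21 (adjusted p = 0.118), and at 0.76 (0.0253) without wild type strain 1. Between the deletions no gene was called in log phase by edgeR (0% of all genes, 232 at an unadjusted p under 0.05, and none of the 10 by DESeq2), with log2 fold changes of mms2Δi over ysf3Δi from -0.22 for MDH2 to 0.47 for ACS1.

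Whether the rise itself was larger in a deletion than in wild type was tested as an interaction of genotype and phase. No gene of the 6068 was called for mms2Δi (0%) or for ysf3Δi (0%), by edgeR, with 568 and 284 genes at an unadjusted p under 0.05, and DESeq2 called none of the 10. FBP1 had the largest interaction among the 10, 1.52 in mms2Δi over wild type, with an unadjusted p of 0.00670 and an adjusted p of 0.502. PCK1 (0.97), JEN1 (0.96) and IDP2 (0.79) also had an unadjusted p under 0.05 in mms2Δi, and none of the 10 had in ysf3Δi. The median interaction over the 10 genes was 0.66 in mms2Δi and 0.24 in ysf3Δi, and without both libraries of wild type strain 1 it was 0.47 in mms2Δi and 0.14 in ysf3Δi. For mms2Δi without that strain FBP1 was at 1.21 (adjusted p = 0.507), MDH2 at -0.03 and CIT2 at -0.20, where they had been at 0.52 and 0.18, and no gene was called. A larger rise in mms2Δi was thus not detectable at this number of strains once all genes were considered.

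The regulators of the pathway were read from lists drawn up by function. Of 8 activator genes 7 rose in wild type at 48 h and 0 fell, beside 32.8% of all genes called higher and 34.3% lower, the background for the list counts in wild type that follow. SIP4 rose by 5.79 and CAT8 by 5.74 on the log2 scale, ADR1, the activator of the alcohol dehydrogenase gene ADH2, by 4.29, HAP4, the activating subunit of the respiration factor, by 1.76, and RDS2 and RTG1 by 1.21 and 0.96. SIP4 had 245 and 256 CPM at 48 h in mms2Δi, 216 and 204 CPM in ysf3Δi and 160 and 185 CPM in wild type, against 2.03 to 3.77 CPM in all log phase libraries. CAT8 had 678 and 780 CPM at 48 h in mms2Δi, 688 and 743 CPM in ysf3Δi and 796 and 811 CPM in wild type, against 7.96 to 15.5 CPM in log phase.

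At 48 h CAT8 was at a log2 fold change of -0.14 in mms2Δi against wild type (adjusted p = 0.675). Of the activators HAP4 alone was called higher, at 1.23 (adjusted p = 0.0143), and RTG3 was called lower, at -0.60 (adjusted p = 0.0459), where 2.09% of all genes were called lower. SIP4 was at 0.54 (adjusted p = 0.0742). In log phase CAT8 (-0.72) and RTG3 (-0.57) were called lower in mms2Δi than in wild type, where 13.3% of all genes were. No gene of the 6068 was called in that comparison without the log phase library of mms2Δi strain 2.

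Of 7 genes of glucose repression 3 rose and 3 fell in wild type at 48 h, shares near those of all genes (32.8% higher and 34.3% lower). MIG1 itself rose by 2.37, with 142 and 116 CPM at 48 h in mms2Δi, 135 and 118 CPM in ysf3Δi and 104 and 128 CPM in wild type, against 18.3 to 52.6 CPM in log phase. HXK2, the hexokinase that takes part in repression, fell by 2.86 and MIG2 by 1.10. HXK2 was higher in mms2Δi than in wild type at 48 h, at 0.84 (adjusted p = 0.0290). Of 6 genes of the Snf1 complex with RTG2, 3 rose and 1 fell in wild type, against the same background: SIP2 rose by 1.61, SNF1 by 0.58 and SIP1 by 0.40, and SNF4 fell by 2.05.

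The genes that bring carbon into the pathway rose as well: 8 of 8 were higher at 48 h in each genotype. In wild type the aldehyde dehydrogenase ALD4 rose by 5.25, the alcohol dehydrogenase ADH2 by 5.15, the acetyl-CoA hydrolase ACH1 by 4.75, the glycerol kinase GUT1 by 2.86, the aldehyde dehydrogenase ALD6 by 2.82 and the lactate dehydrogenase DLD1 by 2.16. At 48 h ACH1 (1.45) and GUT1 (0.69) were called higher and ALD4 (-0.79) lower in mms2Δi than in wild type. Of 12 further carriers of organic acids 6 rose and 3 fell in wild type, where 32.8% of all genes rose and 34.3% fell. The acetate permease gene ADY2 rose by 6.73, MPC3 of the mitochondrial pyruvate carrier by 5.47 and ATO2 by 5.10, and the citrate carrier YHM2 fell by 1.90. ADY2 was called lower in ysf3Δi than in wild type in log phase, at -2.09 (adjusted p = 0.00973), where 13.5% of all genes were. Its log phase levels were low, at 1.206 ± 0.017 CPM in ysf3Δi and 5.2 ± 2.4 CPM in wild type (mean ± SD, n = 2).

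Of the pyruvate carboxylase genes PYC1 rose by 5.81 in wild type and PYC2 was at 0.38 (adjusted p = 0.137), and the aconitase gene ACO1 rose by 2.90. Of 7 genes at the opposing steps of glycolysis 3 rose and 4 fell, beside 32.8% and 34.3% of all genes: PFK1 of phosphofructokinase and CDC19, the main pyruvate kinase, fell by 1.78 and 1.53, and PFK26 and FBP26, which make and remove an activator of phosphofructokinase, rose by 2.43 and 2.07. PYK2, the second pyruvate kinase gene, rose by 2.23. At 48 h PFK1 (0.56), PFK27 (0.67) and ACO1 (1.10) were called higher in mms2Δi than in wild type. Of the isozymes MDH1 (1.06), IDP1 (0.67) and ACS2 (0.52) were called higher there too. All mms2Δi calls at 48 h end without the 48 h library of wild type strain 1, where no gene was called.

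The 6 other named genes whose levels followed the median of the 10 most closely over the 12 libraries were AGX1, PDH1, BOP2, SIP4, SPO24 and DDR2, at a root mean square difference of 0.28, 0.32, 0.34, 0.34, 0.39 and 0.40 in centred log2 CPM. Among the 10 genes themselves PCK1 lay closest to that median, at 0.16, and MDH2 farthest, at 3.26. AGX1 rose by 6.36 at 48 h in mms2Δi, 5.59 in ysf3Δi and 5.21 in wild type, and was at 1.43 in mms2Δi against wild type at 48 h. DDR2 rose by 6.80 in mms2Δi, 9.81 in ysf3Δi and 9.22 in wild type, where the medians of the 10 were 6.54, 6.0 and 5.73. The root mean square difference used log2 CPM with edgeR's default prior count, which damps changes from very few counts. The values of the 10 genes entered the median that they are compared with.

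The authors' deposited tables list genes at an adjusted p under 0.001. For the phase change 9 of the 10 genes were listed in each genotype, all but MDH2. These phase tables held 2690 genes for mms2Δi, 2629 for ysf3Δi and 2865 for wild type. For mms2Δi against wild type at 48 h 7 of the 10 were among the 179 genes listed (all but MDH2, CIT2 and ACS1). In that deposited table of the authors SFC1 was at 1.46 and FBP1 at 1.40. None of the 10 was listed in the authors' deposited table for ysf3Δi against wild type at 48 h (224 genes). None was listed in log phase for mms2Δi (547 genes) or ysf3Δi (309 genes) against wild type. Every listed value had the same direction as in edgeR.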

How the data were processed

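The authors' deposited table gives read counts per gene, made with Bowtie2 on sacCer3 and HTSeq per the submitters' processing notes, versions and strand setting not given. The authors' deposited DESeq2 tables give a log2 fold change, a p-value and adjusted p-value, a mean signal over libraries (normalised counts) and a Wald statistic (score) per the file headers; the log2 fold change and adjusted p-value were read for comparison. The deposited FPKM values were not used for tests.

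After filterByExpr and TMM scaling, 12 libraries in 6 groups entered 1 quasi-likelihood fit of edgeR 4.0.16 (limma 3.58.1, R 4.3.3), and p-values were adjusted over 6068 genes by Benjamini-Hochberg. The common dispersion was 0.0279 with 6 residual degrees of freedom. The approximate error is the log2 fold change over the square root of F. The edgeR fit was first run on simulated counts with known changes. CPM use the scaled totals, and CPM per kb divide by coding length. Isozyme ratios used a pseudocount of 0.5 counts. Sequences came from the RefSeq genome R64 (Biopython 1.88), and 6048 identifiers were matched by systematic name and 38 by symbol.

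The 10 genes and the lists around them were chosen with earlier results of these data known. All 10 and their isozymes are named, with up to 6 genes of each other list by adjusted p in the wild type phase comparison, up to 4 in a genotype comparison and the 6 genes nearest to the median of the 10. Each strain gave a 48 h and a log phase library, which pairs the phases by strain; deviations of a strain in the phases correlated at r = 0.0605 in mms2Δi, 0.0374 in ysf3Δi and -0.164 in wild type over genes. Replicates are separate strains, and edgeR's p-values rest on the spread between strains within groups, pooled over the 6 groups and moderated across genes. With a single library per strain and phase, differences of strain and of culture cannot be told apart. Alternatives were DESeq2 1.42.0, other scalings, filters and thresholds, a replicate block (by strain for phase and interaction comparisons, by strain number between genotypes), the compared libraries alone and leaving out libraries. Splicing was not analysed here. A gene of the lists is not reported here. Plots were drawn with matplotlib 3.10.9 from tables written with pandas 2.3.3 under Python 3.11.15.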

Additional observations from a re-analysis of the deposited data

How the results depend on the processing

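The phase results held in every alternative run: 9 of the 10 genes rose in each genotype, and MDH2 alone changed its call. Between genotypes the main edgeR fit called no gene of all at an adjusted p under 0.001. The authors' deposited DESeq2 tables do list genes at that threshold, as given above. For mms2Δi against wild type at 48 h, 518 of all genes were called higher in the main fit. This number was 4 against a fold of 1.5, 200 with the libraries compared alone and 315 with library totals. It was 412 with no filter, 468 with DESeq2 size factors and 688 by DESeq2. In log phase it was 842 in mms2Δi and 830 in ysf3Δi, and 602 and 613 with library totals. For the genotype comparisons the number of the 10 genes called moved as follows. For mms2Δi against wild type at 48 h (9 called) it was 0 at an adjusted p under 0.001, 1 in a test against a fold of 1.5, 0 without both libraries of wild type strain 1, 7 with library totals and with the libraries compared alone, 8 with DESeq2 size factors and with no filter, 9 by DESeq2, and between 0 and 9 when 1 library was left out. For mms2Δi against wild type in log phase (1 called) it was 0 at the stricter p, 0 against the fold, 0 with scaling by library totals, 3 by DESeq2, and 0 to 1 with 1 library left out. For ysf3Δi against wild type in log phase (2 called) it was 0 at the stricter p, against the fold, with library totals, with the libraries compared alone and with the replicate block, 1 without wild type strain 1, and 0 to 1 with 1 library left out. For ysf3Δi against wild type at 48 h (0 called) it was 4 by DESeq2, where 370 of all genes were called higher. It was 3 with the libraries compared alone, where 440 of all genes were. For mms2Δi against ysf3Δi at 48 h (0 called) it was 3 by DESeq2, where 5 of all genes were called higher. The causes were not tested. For mms2Δi against wild type at 48 h CIT2 kept its call in 2 of 13 alternatives and JEN1 in 5 of 13. The replicate block, by strain for phases and interactions and by strain number between genotypes, gave 7 for mms2Δi at 48 h (CIT2 and JEN1 lost) and changed no phase call of the 10 genes. Scaling by library totals moved the median of all genes by -0.17 (mms2Δi against wild type at 48 h), -0.16 (ysf3Δi, log phase), -0.14 (mms2Δi, log phase) and -0.11 (ysf3Δi, 48 h); ICL1, CIT2, JEN1 and MDH2 lost calls under it. Of the single-gene results 1365 kept their side of the threshold under the alternatives, 88 lost a call and 14 gained a call. None with a call changed sign. Results without a call could change sign and still count among the 1365, as CIT2 did in the mms2Δi interaction (0.18 to -0.20). With 2 strains per group and 5 to 21 counts for SFC1, MLS1 and FBP1 in log phase, small differences there are not detectable.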
